A study of Homo sapiens with 3 samples.

Results

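The genes described are the D cyclins CCND1 and CCND3, the E cyclins CCNE1 and CCNE2, the kinases CDK2, CDK4 and CDK6, the CDK inhibitors CDKN1A (p21) and CDKN1B (p27), and the pocket protein RB1. They were taken by gene name, and all 10 were found among the 16662 genes listed. RNA sequencing was carried out on H1975, a human lung adenocarcinoma cell line that carries mutant EGFR, transfected with a small interfering RNA (siRNA). The groups were siHHLA3-1 and siHHLA3-3, differently numbered siRNAs against HHLA3, and the control siRNA siNC. Each group held 1 library. Transfection was at about 70% confluency, followed by 6 h in serum-free medium and 24 h in medium with 10% serum, the same for all groups. The siRNA sequences are not given in the sources used here, and the labels give each library a batch of its own, so the effects of batch and of siRNA cannot be told apart.

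In G1, cyclins D1 and D3 bind CDK4 and CDK6, and cyclins E1 and E2 bind CDK2. These kinases phosphorylate RB1, which otherwise holds E2F transcription factors inactive, and free E2F switches on the genes of DNA replication. The inhibitors p21 and p27 bind cyclin and CDK complexes and block CDK2, and CCND1 is a well-known target of growth factor signalling from receptors such as EGFR.

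With no replicates, the differences below describe these 3 libraries, without a p-value outside 1 pooled check of all genes, and every interval is a 95% interval that covers counting error only. Library totals were 35069930 reads with siHHLA3-1, 26950852 with siHHLA3-3 and 32813003 with siNC. HHLA3, the targeted gene, stood at 1.55, 0.735 and 5.99 normalised CPM (read counts scaled to a common library size) with siHHLA3-1, siHHLA3-3 and siNC. Of 12 epithelial and lung adenocarcinoma markers 10 were measured, with a summed level between 4731 and 5920 CPM. SFTPB and SFTPC, the surfactant markers, were not among them. Of the 10, 4 lay below siNC with siHHLA3-1 and 9 with siHHLA3-3, beside 51.8% and 51.5% of all genes. With siHHLA3-3, NKX2-1 and KRT19 stood at log2 ratios of -0.89 and -0.63. MUC1 stood at 1.15 with siHHLA3-1 and 0.69 with siHHLA3-3. Of markers of other cell types, 1 of 8 for fibroblasts, 2 of 9 for leukocytes and 2 of 6 for endothelium were measured, and PTPRC, PECAM1 and VWF were not. The summed endothelial level was 22.0 CPM with siHHLA3-1, 5.00 with siHHLA3-3 and 9.66 with siNC, mostly from CDH5. The fibroblast level, from COL1A1 alone, was 24.5, 10.9 and 11.3 CPM, and the leukocyte sum lay between 10.95 and 13.3 CPM. The part of these genes in the results was not tested. All 10 reference genes, ACTB and GAPDH included, lay below siNC with siHHLA3-1 (median log2 ratio -0.22), where 51.8% of all genes did. With siHHLA3-3, 7 of 10 did (median -0.12), beside 51.5% of all genes.

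Levels of different genes were compared per length, as TPM (read counts scaled by gene length and library) in the authors' values. With siNC the deposited values imply lengths from 2461 bases for CCNE1 to 12239 for CDK6, with 9255 for CDKN1B. The order, and the shares and ratios of TPM below, depend on these lengths. For example, CDKN1B stood at 56.3 CPM with siNC and CCNE1 at 18.5 CPM, but at 20.8 and 25.7 TPM. Whether the lengths match the transcripts present was not tested. CCND1 was the most abundant of the 10 genes with siHHLA3-3 (387 TPM) and with siNC (236 TPM). With siHHLA3-1 it came second, at 133 TPM, behind CDKN1A at 198 TPM. CDK4 followed these in every library, at 129 TPM with siHHLA3-1, 169 with siHHLA3-3 and 159 with siNC. CCNE2 was last in every library, at between 8.37 and 9.19 TPM. Several neighbours in the order did not differ beyond their counting intervals. With siHHLA3-1 these were CCND1 at 133 TPM (129 to 136) and CDK4 at 129 TPM (125 to 133), and CCNE1 at 35.8 TPM (33.5 to 38.3) and CDK6 at 34.4 TPM (33.4 to 35.5). With siHHLA3-3 they were CCNE1 at 21.8 TPM (19.8 to 24.0) and CDKN1B at 19.5 TPM (18.5 to 20.6), and CCNE1 also overlapped RB1 at 25.2 TPM (23.8 to 26.7). With siNC they were CDK6 at 48.5 and CCND3 at 48.2 TPM, and CCNE1 and RB1, both at 25.7 TPM.

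**Figure D1:**
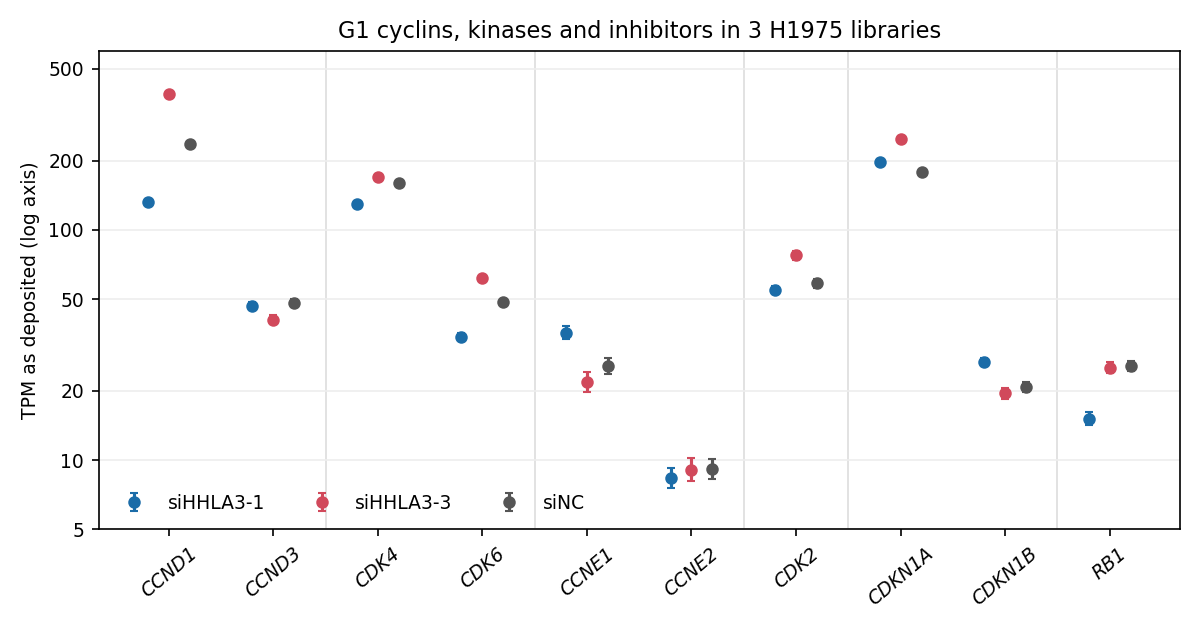
Deposited TPM (log axis) of the 10 genes in the siHHLA3-1, siHHLA3-3 and siNC libraries, with bars for 95% counting intervals. CCND1 spans 133 to 387 TPM over the libraries, while CCNE2 stays between 8.37 and 9.19 TPM.

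Among the D cyclins, CCND1 differed most between libraries and in opposite directions with the siRNAs. Cyclin D1 mRNA stood at 177 CPM with siHHLA3-1 (6300 counts), 516 CPM with siHHLA3-3 (14045 counts) and 328 CPM with siNC (10519 counts). The siHHLA3-1 library was thus the lowest and the siHHLA3-3 library the highest, with siNC between them. In bulk RNA a smaller share of cells in a cell cycle phase and less RNA per cell cannot be told apart, here and below. CCND1 was 1.85-fold lower with siHHLA3-1 than with siNC (1.79 to 1.91) and 1.57-fold higher with siHHLA3-3 than with siNC (1.53 to 1.61). Between the knockdown libraries it was 2.91-fold higher with siHHLA3-3 than with siHHLA3-1 (2.82 to 3.00). Its log2 ratios, taken after adding 1 CPM, were -0.88, 0.65 and 1.53, and only 0.677% of 13879 genes lay below it with siHHLA3-1 and 2.71% above it with siHHLA3-3. In the direct comparison 0.151% lay above it.

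CCND3, which encodes cyclin D3, did not follow CCND1. It stood at 75.4 CPM with siHHLA3-1, 65.6 with siHHLA3-3 and 81.1 with siNC, so both knockdown libraries were below siNC. It was 1.08-fold lower with siHHLA3-1 (1.02 to 1.14) and 1.24-fold lower with siHHLA3-3 (1.16 to 1.31). CCND1 therefore made up 74.0% of the CCND1 and CCND3 total in TPM with siHHLA3-1, 90.5% with siHHLA3-3 and 83.0% with siNC.

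The D cyclin partners CDK4 and CDK6 were lower with siHHLA3-1, and CDK6 was higher with siHHLA3-3. CDK6 stood at 118 CPM with siHHLA3-1 (4202 counts), 212 CPM with siHHLA3-3 (5768 counts) and 174 CPM with siNC (5566 counts), the same order of libraries as for CCND1. It was 1.47-fold lower with siHHLA3-1 than with siNC (1.41 to 1.53), while with siHHLA3-3 it was 1.22-fold higher (1.18 to 1.27). CDK4 stood at 112 CPM with siHHLA3-1, 147 with siHHLA3-3 and 144 with siNC. It was 1.28-fold lower with siHHLA3-1 (1.23 to 1.34), while the ratio with siHHLA3-3 was 1.02 and its interval (0.976 to 1.06) included 1. CDK6 made up 21.0% of the CDK4 and CDK6 total in TPM with siHHLA3-1, 26.7% with siHHLA3-3 and 23.4% with siNC.

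The E cyclins did not move as CCND1 did. CCNE1, cyclin E1, stood at 24.8 CPM with siHHLA3-1 (879 counts), 15.0 CPM with siHHLA3-3 (409 counts) and 18.5 CPM with siNC (594 counts), the reverse of the order for CCND1. It was 1.34-fold higher with siHHLA3-1 than with siNC (1.20 to 1.49), while with siHHLA3-3 it was 1.23-fold lower (1.08 to 1.40). CCNE2, cyclin E2, stood at 10.3, 11.2 and 11.8 CPM with siHHLA3-1, siHHLA3-3 and siNC, from 367, 305 and 379 counts. All intervals of its ratios included 1, so no difference was detectable at this depth. CDK2, the kinase of the E cyclins, stood at 60.0 CPM with siHHLA3-1, 84.3 with siHHLA3-3 and 66.5 with siNC. It was 1.11-fold lower with siHHLA3-1 than with siNC (1.04 to 1.18), while with siHHLA3-3 it was 1.27-fold higher (1.19 to 1.34).

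Of the inhibitors, CDKN1A was higher with siHHLA3-3 and CDKN1B with siHHLA3-1. CDKN1A, a p53 target that also responds to other stresses, stood at 167 CPM with siHHLA3-1, 208 with siHHLA3-3 and 156 with siNC. Its ratio to siNC was 1.07 with siHHLA3-1 (1.03 to 1.11) and 1.34 with siHHLA3-3 (1.29 to 1.39), and it was the only one of the 10 genes above siNC in both knockdown libraries. CDKN1B stood at 69.2 CPM with siHHLA3-1, 50.5 with siHHLA3-3 and 56.3 with siNC. Relative to siNC it was 1.23-fold higher with siHHLA3-1 (1.16 to 1.31), while with siHHLA3-3 it was 1.11-fold lower (1.04 to 1.20). RB1 stood at 27.4 CPM with siHHLA3-1 (972 counts), 45.4 CPM with siHHLA3-3 (1236 counts) and 48.3 CPM with siNC (1551 counts). The siHHLA3-1 library was thus apart from the other two. RB1 was 1.77-fold lower with siHHLA3-1 than with siNC (1.63 to 1.92), and its interval with siHHLA3-3 included 1. LPAR6, a lysophosphatidic acid receptor gene that lies within RB1 on the opposite strand and shares no exon base with it, stood at 0.845 CPM with siHHLA3-1 (30 counts), 12.2 CPM with siHHLA3-3 (332 counts) and 0.249 CPM with siNC (8 counts), and was named after its values were seen.

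Some members share exon bases with a gene on the opposite strand in GENCODE release 29, and reads of such pairs cannot be told apart, as no label or header gives the use of strand. TSPAN31 shares 43.2% of the exon bases of CDK4 and stood at 19.8, 16.4 and 14.1 CPM with siHHLA3-1, siHHLA3-3 and siNC. INTS8 shares 37.0% of those of CCNE2 and stood at 108, 73.2 and 97.0 CPM, far above CCNE2 itself, so the level of CCNE2 is uncertain. LTO1 shares 10.3% of those of CCND1 and stood at 54.6, 45.7 and 51.4 CPM, which did not follow CCND1. PMEL shares 2.29% of those of CDK2, and the other members shared none with a listed gene.

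**Figure D2:**
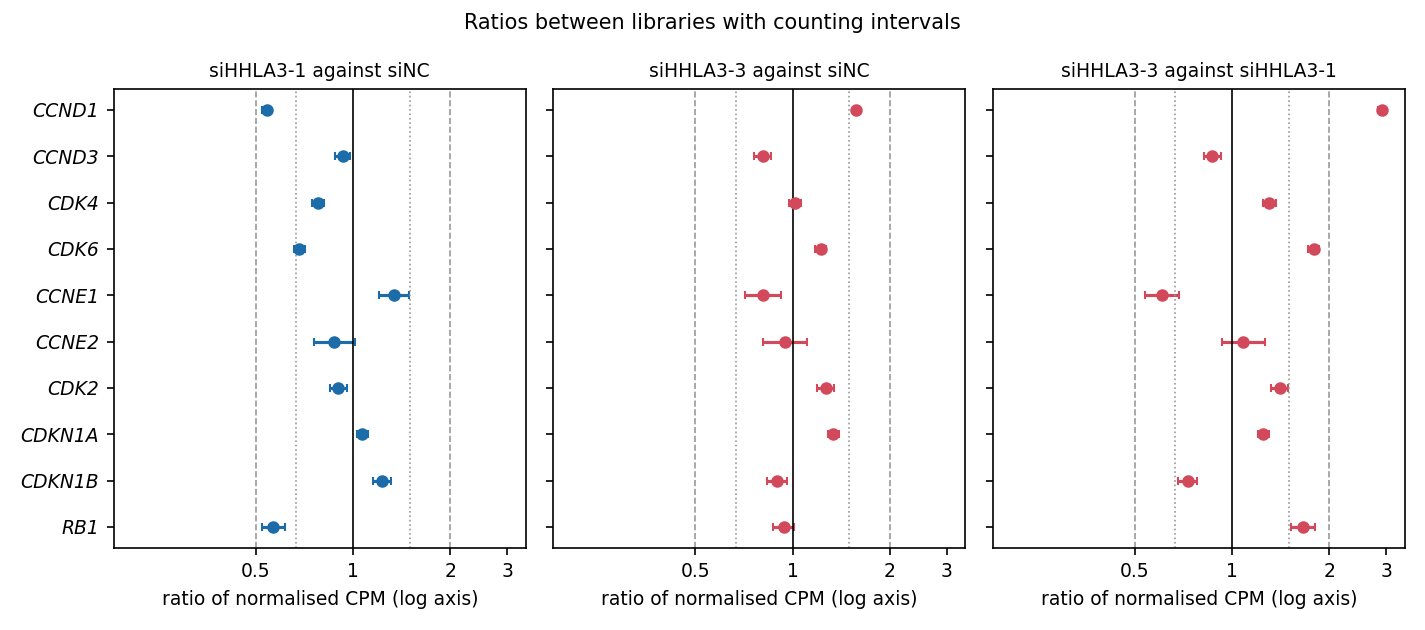
Ratio of normalised CPM (log axis) for each gene in siHHLA3-1 against siNC, siHHLA3-3 against siNC and siHHLA3-3 against siHHLA3-1, with 95% counting intervals. Dotted lines mark 1.5-fold and dashed lines 2-fold; CCND1 lies beyond 1.5-fold on opposite sides in the comparisons with siNC and reaches 2.91 between the siHHLA3 libraries.

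Ratios between genes of 1 library do not depend on how libraries are scaled, but in TPM they depend on the gene lengths used. The CCND1 and CCND3 total per CCNE1 and CCNE2 total, in TPM, was 4.06 with siHHLA3-1, 13.8 with siHHLA3-3 and 8.12 with siNC. Per CDK4 and CDK6 total it was 1.10, 1.85 and 1.37, and per CDKN1A and CDKN1B total 0.798, 1.60 and 1.43. Each of these ratios was lower with siHHLA3-1 than with siNC and higher with siHHLA3-3. The genes that the D cyclins are set against also differed between libraries, so the ratios do not give the amount of D cyclin mRNA.

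Of the 10 genes, 3 carried in the annotated 3' UTR a 7-base sequence that ranked first among those of genes lower in a knockdown library. The sequences below are shown because CDK6 and RB1, 2 of the 3 genes lowest with siHHLA3-1 relative to siNC, are carriers, and CCND1, the lowest, is not. Of 16328 7-base sequences in the 3' UTRs of 10489 genes, CAGAATG ranked first for lower ratios in carriers with siHHLA3-1, and GTGAACT with siHHLA3-3. The ranking used a t statistic, which also depends on how many genes carry a sequence. Both sequences were chosen from these same ratios, so low values in carriers are partly built in. CAGAATG was carried by 17.7% of these genes and GTGAACT by 11.9%. Sites are given with 11 bases on either side, 5′ to 3′ on the transcript strand, with the 7-base sequence in capitals and the base after the stop codon at which it begins.
CDK6 CAGAATG at UTR base 733: tatttagtcttCAGAATGctgaatttact
CDK6 CAGAATG at UTR base 2550: ttctgatgacaCAGAATGaaagggcatct
CDK6 CAGAATG at UTR base 3458: gtttgactctcCAGAATGtactatccatc
CDK6 CAGAATG at UTR base 9123: ttatattgctaCAGAATGctctgttttgg
CDK6 CAGAATG at UTR base 9510: gctactgtcttCAGAATGctctgagctga
CDK6 GTGAACT at UTR base 2816: gctaagcagtgGTGAACTgaaaagggcat
RB1 CAGAATG at UTR base 691: atttcatacctCAGAATGtaaaagaactt
CDKN1B CAGAATG at UTR base 688: taattactcagCAGAATGgtgatcactcc
RBL2 GTGAACT at UTR base 709: ctttctacaatGTGAACTttattaaatac

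The sequences are those of GENCODE release 29 transcripts on GRCh38, which is not the hg19 build named in the submitters' processing notes. The outermost CDK6 sites lie at chr7:92614390-92614418 and chr7:92605613-92605641 on the minus strand. The RB1 site lies at chr13:48480751-48480779, the CDKN1B site at chr12:12721704-12721732 and the RBL2 site at chr16:53490998-53491026, all on the plus strand. CDK6 holds 5 CAGAATG sites in a 3' UTR of 10219 bases, and only 4 of the 10489 genes hold at least 5. Long UTRs hold more of any sequence: 64.9% of the 168 genes within 20% of that length held CAGAATG, as did 16.3% of 1604 genes of about the UTR length of RB1. For the UTR length of CDKN1B the share was 13.1% of 1501 genes. GTGAACT was held by 44.0% of the 168 genes of about the UTR length of CDK6. Genes with CAGAATG had a median log2 ratio of -0.10 with siHHLA3-1, against -0.02 for genes without it, and the 358 genes with at least 2 sites had a median of -0.15. CDK6 and RB1, at -0.55 and -0.80, lay below these medians, and CDKN1B, a carrier too, lay above siNC at 0.29. With siHHLA3-3, CDK6, which holds GTGAACT once, was at 0.29, and carriers of GTGAACT had a median of -0.21. Neither sequence was found in the annotated 3' UTRs of CCND1, CCND3, CCNE1, CCNE2, CDK2, CDK4 or CDKN1A. Whether these sites bear on the values was not tested.

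**Figure D3:**
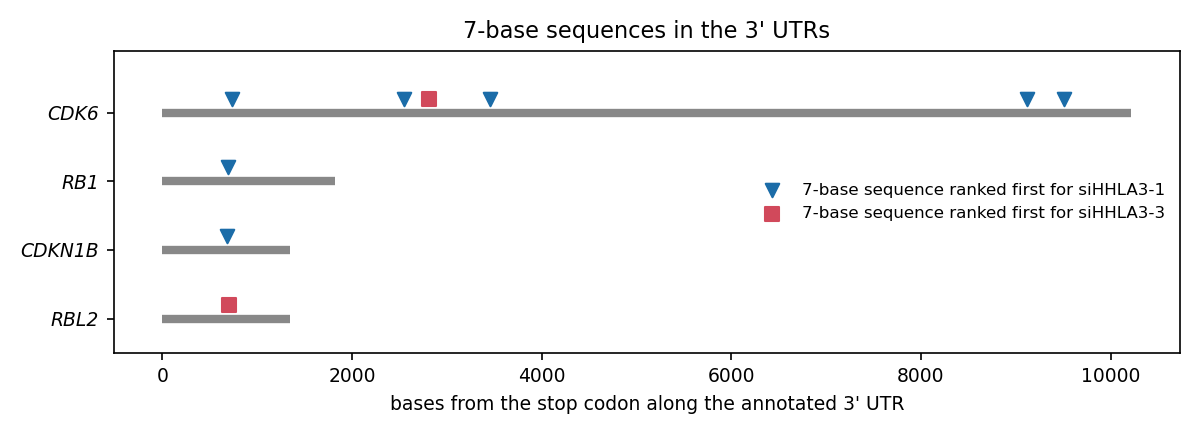
Position, in bases from the stop codon, of the 7-base sequence ranked first for siHHLA3-1 (triangles) and for siHHLA3-3 (squares) along the annotated 3' UTRs of CDK6, RB1, CDKN1B and RBL2 (grey bars). CDK6 holds 5 sites of the first and 1 of the second over 10219 bases.

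No member reached 2-fold against siNC with either siRNA. With siHHLA3-1, 0.973% of the 13879 genes that averaged at least 1 CPM were at least 2-fold higher than with siNC and 0.382% at least 2-fold lower, and with siHHLA3-3 the shares were 0.807% and 1.48%. Between the siHHLA3 libraries 1 member, CCND1, was at least 2-fold higher with siHHLA3-3, as were 0.757% of all genes, and none was at least 2-fold lower, as were 2.12%. At 1.5-fold, CCND1 and RB1 were lower with siHHLA3-1 than with siNC, 2 of 10 where the share of all genes was 3.34%, and none was higher, where it was 5.03%. With siHHLA3-3 only CCND1 was at least 1.5-fold higher, 1 of 10 where the share was 3.65%, and none was lower, where it was 5.57%. Between the siHHLA3 libraries CCND1, CDK6 and RB1 were at least 1.5-fold higher with siHHLA3-3 (4.4% of all genes) and CCNE1 at least 1.5-fold lower (7.82%). The median of the absolute log2 ratio over the members was 0.32 with siHHLA3-1, 0.29 with siHHLA3-3 and 0.47 between them, against 0.20, 0.19 and 0.22 over all genes.

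The counting interval of the ratio excluded 1 for 6 members lower and 3 higher with siHHLA3-1, beside 32.6% and 28.7% of all genes. It did so for 3 lower and 4 higher with siHHLA3-3, beside 30.6% and 27.6%. Between the siHHLA3 libraries 3 were lower and 6 higher with siHHLA3-3, beside 31.1% and 31.6%. Whether an interval excludes 1 depends on read depth. The members averaged 11.1 to 340 CPM, while the genes behind the shares start at an average of 1 CPM. The interval shares, here and below, are therefore not matched to the members in depth. The median log2 ratio of the members was -0.16 with siHHLA3-1, -0.02 with siHHLA3-3 and 0.35 between the siHHLA3 libraries, against -0.01, -0.01 and 0.00 over all genes. The intervals of CCND1, CDK2 and CDK6 lay below 1 with siHHLA3-1 and above 1 with siHHLA3-3, as for 5.65% of all genes. Those of CCNE1 and CDKN1B lay above 1 with siHHLA3-1 and below 1 with siHHLA3-3, as for 5.61%. Scaling by library totals alone moved the log2 ratios with siHHLA3-1 alike, to -0.83 in place of -0.88 for CCND1, to 0.14 in place of 0.09 for CDKN1A and to -0.05 in place of -0.10 for CCND3. For CCND3 this is within the plus-or-minus margin of 0.08 of its interval, so its place among the 6 lower members depended on the scaling. The median over the members with siHHLA3-3 was then 0.02, so its sign depended on the scaling.

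**Figure D4:**
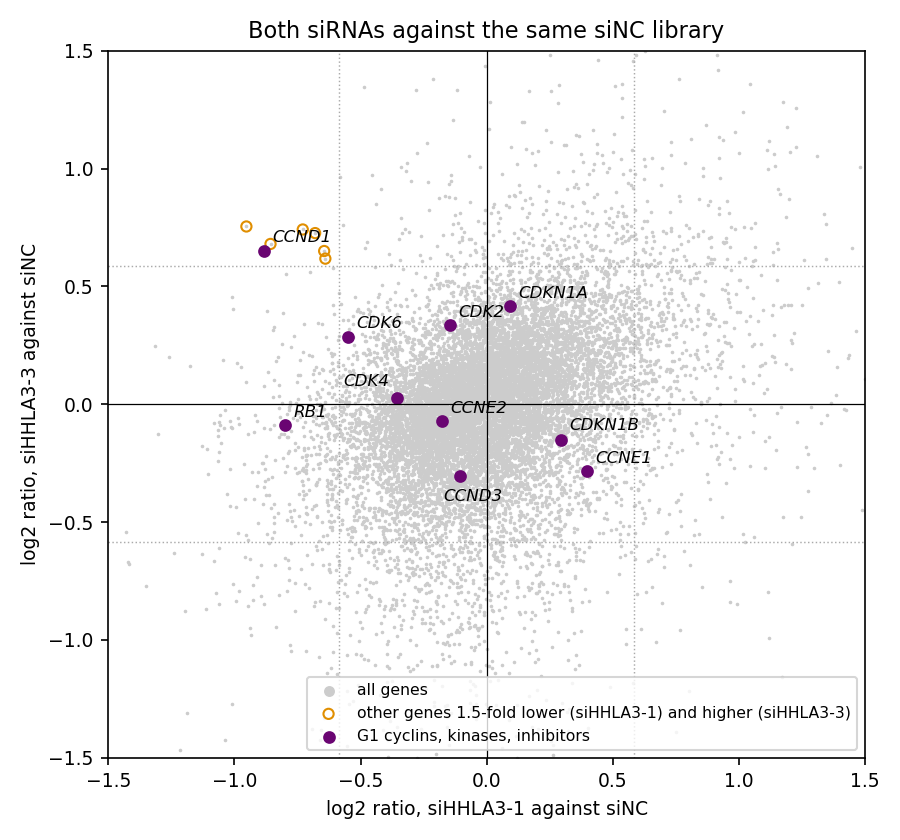
Log2 ratio with siHHLA3-1 against siNC (x axis) and with siHHLA3-3 against siNC (y axis) for all genes (grey), the 10 members (purple) and the other genes at least 1.5-fold lower with siHHLA3-1 and higher with siHHLA3-3 (orange rings). Dotted lines mark 1.5-fold, 87 genes lie outside the axes, and both axes share the siNC library; CCND1 sits at -0.88 and 0.65.

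CCND1 was 1 of 7 genes, or 0.0504% of those above the filter, that were at least 1.5-fold lower with siHHLA3-1 and at least 1.5-fold higher with siHHLA3-3 than with siNC. The others, listed after their values were seen, were KDSR, CCDC50, NRG1, TGFA, GPR3 and SLC39A10. For TGFA, a ligand of EGFR, the log2 ratios were -0.64 and 0.62, and for NRG1, a ligand of ERBB3 and ERBB4, -0.64 and 0.65. Among 7934 other genes that averaged at least 20 CPM, those whose pair of log2 ratios to siNC lay closest to that of CCND1 were CCDC50 (Euclidean distance 0.04), KDSR (0.12), STX3 (0.13), SLC39A10 (0.22) and FRMD6 (0.23). This likeness rests on 3 libraries.

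As a check over all genes, both siHHLA3 libraries were treated as 1 group of 2 against siNC, although the labels do not call them replicates. The fit leaves 1 degree of freedom for error and takes the single siNC library to vary as the knockdown libraries do. Opposite changes cancel in it, as for CCND1, whose log2 fold change was 0.08. By edgeR's quasi-likelihood test with Benjamini-Hochberg adjustment, none of the 10 genes was called, and the lowest unadjusted p was 0.277, for RB1, with an adjusted p of 0.99993. DESeq2 called none either, and neither tool gave any member an unadjusted p under 0.05. Among all 13879 genes edgeR called 1 (0.00721%), with 349 at an unadjusted p under 0.05. This gene was BOLA2B, whose reads near-identical copies can share. DESeq2 called 5 (0.036%), adding XAGE1B, which also has near-identical copies, RSAD2, ZNF554 and LPAR6. The log2 fold changes of the members in edgeR ran from -0.41 for RB1 to 0.27 for CDKN1A.

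E2F target genes, downstream of RB1, were lower with siHHLA3-1 and slightly higher with siHHLA3-3. All 22 E2F targets of S phase entry lay below siNC with siHHLA3-1, where 51.8% of all genes did, with a median log2 ratio of -0.57. Of the 22, 9 were at least 1.5-fold lower, beside 3.34% of all genes. With siHHLA3-3, 20 of the 22 lay above siNC, where 48.5% of all genes did, with a median of 0.21 and none at 1.5-fold. CDC45, of the replicative helicase, stood at 39.7 CPM with siHHLA3-1, 107 with siHHLA3-3 and 80.7 with siNC. The helicase subunit MCM3 stood at 114, 239 and 172 CPM, and the licensing factor CDT1 at 76.0, 144 and 109 CPM. Unlike these, the E2F target CCNE1 was higher with siHHLA3-1 and lower with siHHLA3-3.

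A list of cyclins and kinases of S, G2 and M also holds CDC20, FOXM1 and MYBL2, which are neither. Its genes lay below siNC in all 12 cases with siHHLA3-1 (median -0.66), where 51.8% of all genes did. Of the 12, 7 were at least 1.5-fold lower, beside 3.34% of all genes. With siHHLA3-3, 9 of 12 lay below siNC, where 51.5% of all genes did (median -0.13, none at 1.5-fold). The 3 above it were AURKB, FOXM1 and MYBL2. Cyclin A2, CCNA2, stood at 52.1 CPM with siHHLA3-1, 101 with siHHLA3-3 and 107 with siNC. The mitotic genes CCNB1, PLK1 and CDC20 lay at log2 ratios of -0.74, -0.89 and -0.99 with siHHLA3-1, and of -0.47, -0.42 and -0.55 with siHHLA3-3.

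The median over E2F factors and pocket proteins was -0.06 with siHHLA3-1 and 0.12 with siHHLA3-3, and 6 and 9 of 12 lay above siNC, beside 48.2% and 48.5% of all genes. RBL1 (p107), a relative of RB1, stood at 47.0 CPM with siHHLA3-1, 84.8 with siHHLA3-3 and 60.7 with siNC. RBL2 (p130), the pocket protein of resting cells, stood at 64.6, 26.8 and 56.3 CPM, at a log2 ratio of -1.04 with siHHLA3-3. Its 3' UTR holds GTGAACT, printed above, as do 7.06% of the 1502 genes of about its UTR length. GTGAACT was chosen from these same ratios, so low values in its carriers are partly built in. Of 10 carriers in the related and marker lists, 8 lay below siNC with siHHLA3-3, where 51.5% of all genes did, and 2 above it. RBL2 was the lowest of the 10, and the highest, E2F3, stood at 0.04. RB1 was thus lower than with siNC in the siHHLA3-1 library and RBL2 in the siHHLA3-3 library. With siHHLA3-1, E2F2 and the E2F partner TFDP1 were at log2 ratios of -0.47 and -0.32, and with siHHLA3-3 they were at 0.40 and 0.35.

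Of the other inhibitors, CDKN2B (p15), which blocks CDK4 and CDK6, went the same way as CDKN1B. It stood at 46.2 CPM with siHHLA3-1, 19.7 with siHHLA3-3 and 31.3 with siNC, or log2 ratios of 0.55 and -0.64. CDKN2C (p18) was below siNC with both (-0.38 and -0.43), as were CDKN2D (p19, -0.53 and -0.11) and the CDK-binding phosphatase CDKN3 (-0.88 and -0.28). The list of 5 measured genes had medians of -0.38 and -0.28. Among 8 genes of CDK activation and inhibitory phosphorylation the medians were -0.01 and 0.03. CDC25A, the phosphatase that activates CDK2, stood at 33.5 CPM with siHHLA3-1, 62.7 with siHHLA3-3 and 29.4 with siNC. CDC25B had ratios of 0.06 and -0.54, CDC25C of -0.72 and -0.28, and the inhibitory kinase PKMYT1 of -0.49 and 0.39.

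A list of 14 genes around the ubiquitin ligases of G1 cyclins and p27 also holds USP28, which is not a ligase gene. It showed a median of -0.19 with siHHLA3-1 and of -0.09 with siHHLA3-3, with none at 1.5-fold in either. CKS1B, the partner of SKP2 in p27 degradation, had log2 ratios of -0.50 and -0.08, and its relative CKS2 of -0.55 and -0.15. FBXW7, which targets cyclin E, had 0.42 and 0.17, and the ligase subunit RBX1 -0.21 and -0.34.

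A list of growth factor signalling genes, which includes pathway inhibitors and output genes, showed medians of -0.11 with siHHLA3-1 and 0.29 with siHHLA3-3. Of 18 genes, 12 lay below siNC with siHHLA3-1, where 51.8% of all genes did. With siHHLA3-3, 13 lay above it, where 48.5% of all genes did, and 7 of them at least 1.5-fold, where 3.65% did. The AP-1 factor FOSL1 stood at 136 CPM with siHHLA3-1, 347 with siHHLA3-3 and 165 with siNC. EGR1 and IER3 were above siNC with both, at log2 ratios of 0.17 and 0.44 with siHHLA3-1 and of 0.88 and 0.76 with siHHLA3-3, and the RAS pathway inhibitor SPRED1 was below it, at -0.33 and -0.80. A list of 22 p53 targets other than CDKN1A had medians of 0.12 and 0.06. They were spread widely, with BBC3 (PUMA) at 1.34 and 0.81, BTG2 at 1.17 and 0.89, SESN2 at 0.76 and 1.38, and TP53INP1 at 1.06 and -0.56. Of 10 stress and interferon genes all lay above siNC with both, beside 48.2% and 48.5% of all genes, with medians of 0.66 and 1.00. DDIT3 (CHOP) among them had log2 ratios of 0.52 and 1.89, PPP1R15A of 0.61 and 1.53, SAMD9L of 1.74 and 0.62 and RSAD2 of 1.35 and 1.52.

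**Figure D5:**
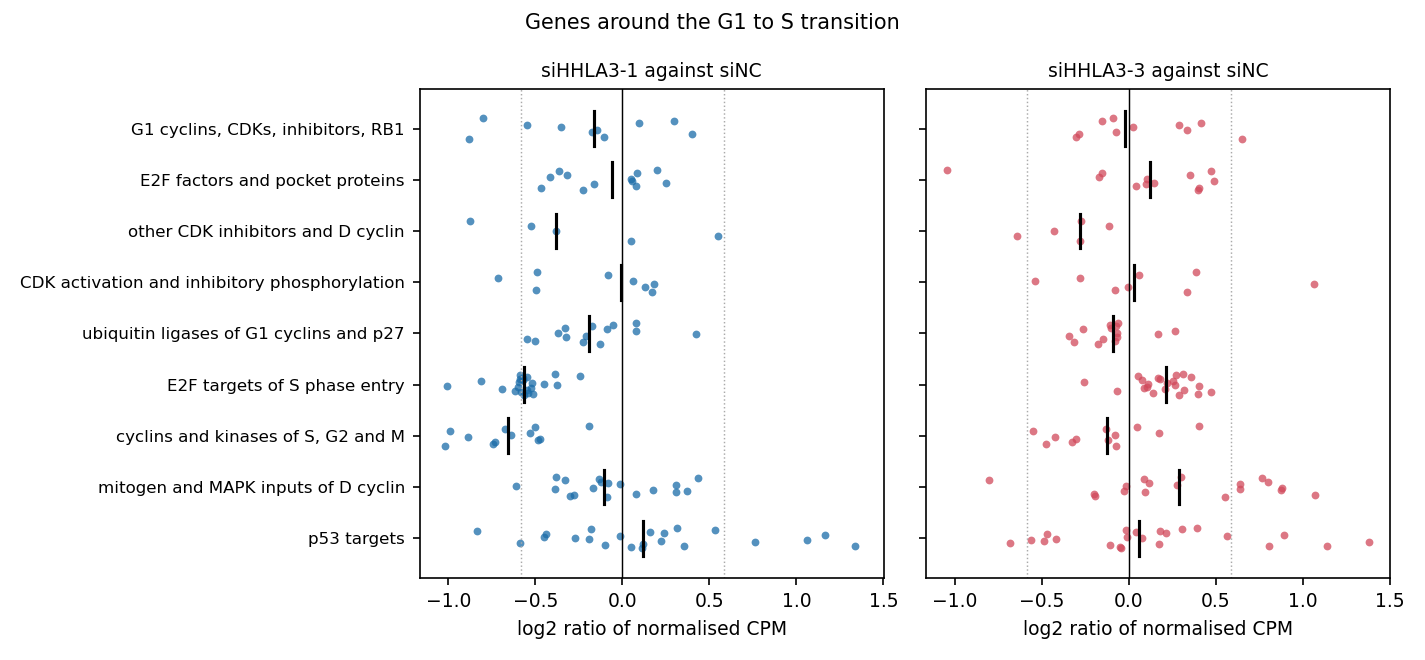
Log2 ratio of normalised CPM with siHHLA3-1 (left) and siHHLA3-3 (right) against siNC for the 10 members and for the genes of 8 related lists; each point is a gene, black lines are medians and dotted lines mark 1.5-fold. The E2F targets have medians of -0.57 with siHHLA3-1 and 0.21 with siHHLA3-3.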

How the data were processed

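Total RNA (1 ug per library) from H1975 cells was sequenced, 1 library per siRNA. The authors deposited 1 table with counts (whole reads per gene, not normalised), CPM (those counts scaled to the library total), FPKM and TPM (also scaled by length), per the file headers. The tools HISAT2, HISAT, TopHat2 and Bowtie2 and the build hg19 are named in the submitters' processing notes; the counting program, annotation and use of strand are not given in the sources used here. Reads shared with overlapping or near-identical genes are therefore uncertain.

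Library totals were recovered from the deposited counts and CPM. Counts were scaled with TMM factors (edgeR 4.0.16, R 4.3.3) to normalised CPM. Ratios are log2 of (CPM + 1) over (CPM + 1), which understates low genes, and printed folds omit the added 1. The 13879 genes that averaged at least 1 CPM gave the shares of all genes. Levels carry exact 95% Poisson intervals and ratios exact 95% binomial intervals. A count of 3, the floor, was at most 0.110 CPM. The members and gene lists were chosen with earlier results of these data known. In each list up to 4 genes that averaged at least 5 CPM and had the largest mean absolute ratio to siNC are named, except for the marker and reference lists and 1 gene that is not reported here.

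The 3' UTR after the stop codon was that of the transcript with the longest one in GENCODE release 29. It was searched in genes that averaged at least 5 CPM. For each siHHLA3 library, 7-base sequences found in at least 30 genes were ranked by a t statistic. This is the difference in mean log2 ratio to siNC between genes with and without the sequence, divided by its standard error. Alternatives were DESeq2 1.42.0 size factors, library totals, a pseudocount of 0.1, deposited TPM or FPKM, centring and other filters. Methods were tested on simulated data with changes shared by both knockdown libraries, which does not cover opposite changes such as that of CCND1. Calculations also used pandas 2.3.3, scipy 1.17.1 and numpy 2.4.6 in Python 3.11.15.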

Additional observations from a re-analysis of the deposited data

Results flagged for a closer look

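In 5 genes the ratios to siNC lay on opposite sides of 1 with the siRNAs, each beyond its counting interval. The difference between the siRNAs was not tested, since each is 1 library, and both ratios share the siNC library. The log2 ratio of siHHLA3-3 against siHHLA3-1 was 1.53 for CCND1, 0.83 for CDK6 and 0.48 for CDK2, which were lower with siHHLA3-1 and higher with siHHLA3-3 than with siNC. It was -0.68 for CCNE1 and -0.45 for CDKN1B, which went the other way. For CDKN1B the place beyond its counting interval depended on the scaling. Its log2 ratio of -0.15 with siHHLA3-3 was -0.09 with deposited TPM or FPKM, within the plus-or-minus margin of 0.10 of that interval. For CDK2, the log2 ratio of -0.15 with siHHLA3-1 was -0.09 with deposited TPM, against a margin of 0.09. The 10 reference genes had a median of -0.22 in that comparison, below the -0.15 of CDK2.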

How the results depend on the processing

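With library totals alone, DESeq2 size factors, a pseudocount of 0.1, deposited TPM, deposited FPKM or centring on the median of all genes, the numbers of members past 2-fold and past 1.5-fold stayed within 1.5 times those reported. The medians moved by less than the plus-or-minus margin of the counting intervals on the log2 scale, taken as the median margin over the members. The median with siHHLA3-3, -0.02 as reported, changed sign to 0.02 with library totals, 0.04 with TPM and 0.03 with FPKM, and that with siHHLA3-1 was -0.10 with FPKM in place of -0.16. No ratio whose counting interval excluded 1 changed sign. Of 180 member ratios so recomputed, 14 moved by more than the plus-or-minus margin of their own counting interval. Of the 14, 6 were those of CCND1, which reached -0.82 with siHHLA3-1 and 0.72 with siHHLA3-3. Among all genes, those past 2-fold with siHHLA3-1 numbered 188, against 313 with a pseudocount of 0.1 and 112 with FPKM. With siHHLA3-3 they numbered 317 (35.3% higher), against 175 with FPKM and 294 with TPM (46.3% higher). Between the siHHLA3 libraries they numbered 399, against 208 with FPKM. Taking the libraries together, DESeq2 called 5 genes where edgeR called 1. No paired analysis was possible because each group holds 1 library. Leaving out either siHHLA3 library leaves no residual degree of freedom, so it was not run as a test. Depth limits CCNE2 and CCNE1 most, with 305 to 379 and 409 to 879 counts.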

Other observations

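In the RefSeq promoter table for GRCh38.p14, 7 of the 10 members had an entry, with 10 windows of 250 bases before to 50 after a start. The RB1 window lies near the 3' end of the gene and is not at its main start. None held the E2F octamers TTTCCCGC, TTTGGCGC, TTTCGCGC or TTTGGCGG, the AP-1 motif TGACTCA or the CRE motif TGACGTCA on either strand. Of all 35116 windows 3.35% held one of the octamers, 4.95% the AP-1 motif and 1.85% the CRE motif. This says only that these letters are not in these windows.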
